A study of Mus musculus with 4 samples.

Results

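The TRIM family was described in B16-OVA cells, a mouse melanoma line carrying ovalbumin, after mock transfection or transfection with AT90ES. Members were the genes whose single symbol on the array reads Trim, a number and at most a letter from a to e, and 63 of the 22180 genes measured met this rule. RNA was hybridised to 4 arrays, 2 labelled mock and 2 labelled AT90ES. The treatment text names a double-stranded DNA of 90 bases delivered with the cationic lipid Lipofectamine 2000 for 6 hours, and it is the same for both groups, so the content of the mock transfection is not known. The labels give no cultures or passages, so the spread between arrays may be technical. Errors and intervals below are moderated values from limma, which combine the spread of a gene's own arrays with spread shared across genes. All levels are log2 values that the authors had normalized with RMA, and a difference of 1 on this scale is a doubling relative to the other genes of the array.

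TRIM proteins carry a RING domain, B-boxes and a coiled coil, and most act as ubiquitin ligases whose carboxy-terminal domain selects the target. Many are induced by type I interferon, and several set the strength of the response to foreign nucleic acid by attaching ubiquitin to sensors, adaptors or transcription factors. Others act in chromatin, muscle, neurons or the cytoskeleton and are not known as interferon targets.

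The arrays of a group had similar distributions, with medians between 4.83 and 4.91 over all probes. Melanocyte markers identified the line: all 7 (Pmel, Mlana, Tyr, Tyrp1, Dct, Sox10 and Mitf) lay above background on every array, with mean levels of 6.97 to 12.89. Background was taken as the 95th percentile of 1088 olfactory receptor genes, which was 4.85 to 5.07 over the arrays. Of the markers of other cell types, 3 of 6 for macrophages, 0 of 5 for T and B cells and 2 of 6 for fibroblasts and endothelium lay above it on every array. The log2 of the summed macrophage markers was 7.88 and 7.96 in mock and 7.74 and 7.87 in AT90ES cells, that of the T and B cell markers 6.74 and 6.67 against 6.67 and 6.69, and that of the fibroblast and endothelial markers 7.83 and 7.89 against 7.79 and 7.94. The part of other cells in the results was not tested. In bulk RNA, fewer cells of a type and less RNA per cell cannot be told apart.

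Trim21 and Trim26 were the members whose RNA rose after AT90ES. Limma, adjusted over all genes at 0.05, called 2 of the 63 higher and 0 lower, and 61 did not pass. Over all genes it called 0.415% higher and 0% lower. At an unadjusted p under 0.05 there were 7 members higher and 6 lower (all genes: 4.5% and 4.59%), a split that became 8 and 3 when array medians were set equal and 6 and 8 when reference genes were set equal, which moved the median of all genes by 0.03 and -0.05. The median log2 fold change of the family was -0.06 and that of all genes -0.02. The changes of 57 members were smaller than 0.5 in size. Both AT90ES arrays lay above both mock arrays for 12 members (all genes: 17.7%) and below them for 17 (all genes: 22.1%), and the groups overlapped for the other 34. These members were 19.0% and 27% of the family.

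**Figure D1:**
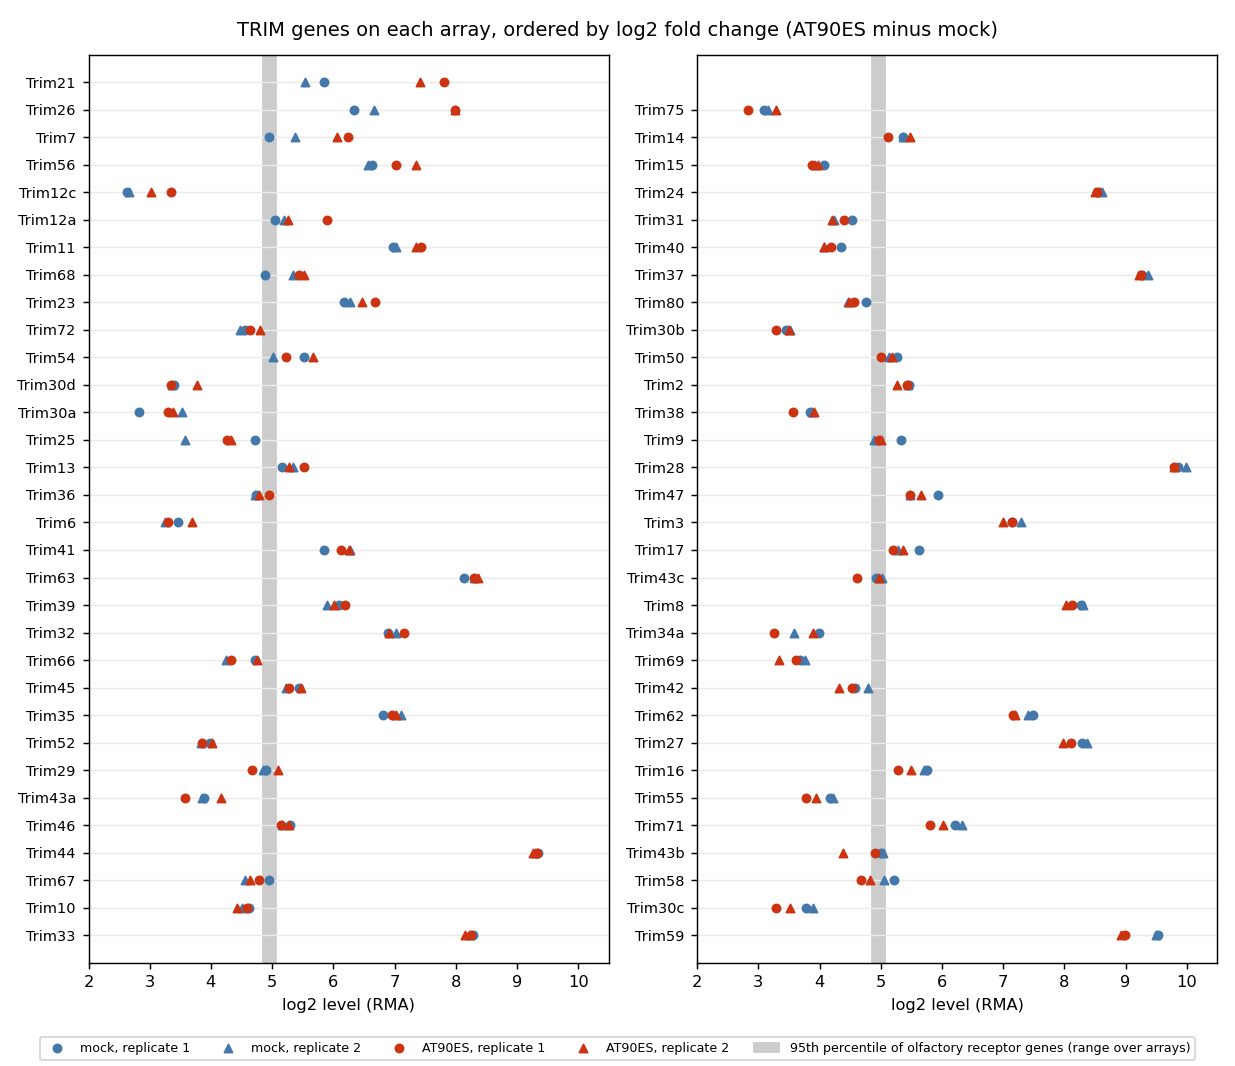
Log2 level of each of the 63 TRIM genes on each array (blue mock, red AT90ES, circles replicate 1, triangles replicate 2), ordered from the highest to the lowest log2 fold change, with the background range in grey. Trim21 and Trim26 show the widest gaps between the groups, and 23 genes lie under background on every array.

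Much of the family was near background in this line. On all 4 arrays 31 members lay above the olfactory percentile, 9 lay above it on some arrays, and 23 lay above it on none. A probe set's level depends on how well its own probes bind, so these levels do not rank the genes by RNA amount. The 5 highest mean levels were those of Trim28 (9.86), Trim44 (9.30), Trim37 (9.27), Trim59 (9.24) and Trim24 (8.55), and none of these passed the threshold. A change in a gene near background could go unseen.

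**Figure D2:**
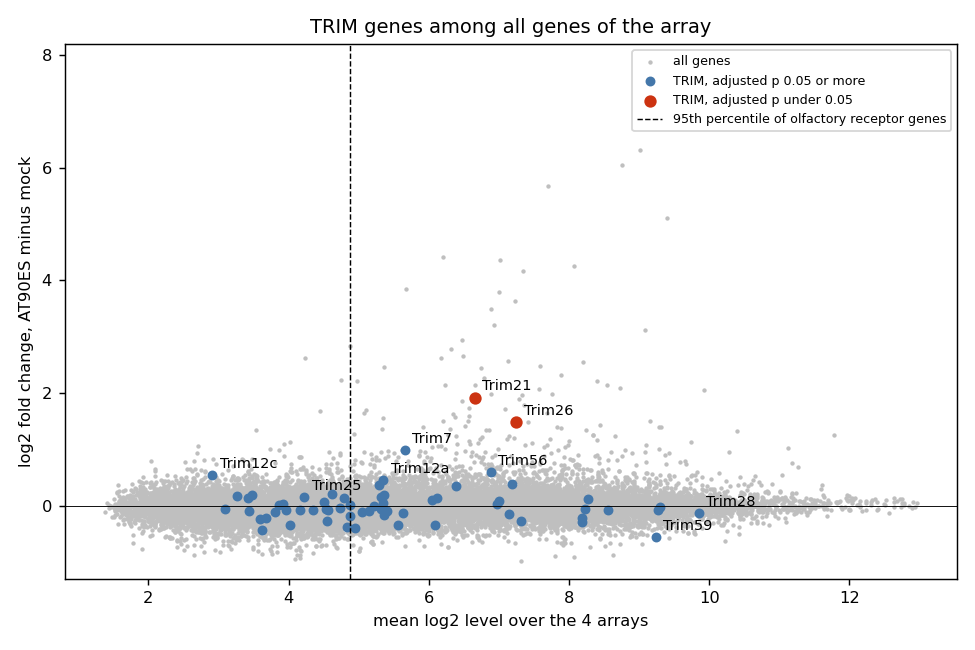
Log2 fold change (AT90ES minus mock) against mean log2 level over the 4 arrays, for all genes (grey) and TRIM genes (blue, or red where the adjusted p was under 0.05); the dashed line is the 95th percentile of olfactory receptor genes. Trim21 and Trim26 stand at 1.92 and 1.49 to the right of the line, and most TRIM genes lie among the bulk of genes around 0.

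Trim21 encodes a receptor inside the cell for antibodies, which sends antibody-coated virus to the proteasome, and is also known as the autoantigen Ro52. Trim21 measured 5.84 and 5.54 in mock and 7.81 and 7.41 in AT90ES cells. The groups were well separated, with both AT90ES values more than 1.5 above the higher mock value. Trim21 rose by 1.92 ± 0.19 (SE, n = 2 arrays per group), a 3.78-fold change with a 95% interval of 1.46 to 2.38 on the log2 scale (limma adjusted p = 0.0254).

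Trim26, a nuclear and cytoplasmic ligase that has been linked to the control of interferon production, had levels of 6.34 and 6.67 in mock and 7.99 and 8.0 in AT90ES cells. The AT90ES values were nearly equal, and the mock values were further apart. Trim26 rose by 1.49 ± 0.15 (SE, n = 2 per group), a 2.81-fold change with an interval of 1.12 to 1.85 (adjusted p = 0.0278).

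Both AT90ES arrays lay above both mock arrays for both genes, so leaving out an array could not reverse the direction. Fits that changed only the spread model, the block or the genes tested kept the same fold change by construction. The direction also held with the arrays centred. When an array was left out, the size was between 1.72 and 2.12 for Trim21 and between 1.33 and 1.65 for Trim26. The calls changed between fits. Trim21 passed in 1 of the 4 fits with an array left out, that without mock replicate 1 (adjusted p = 0.0461), and the adjusted p was 0.0798 when mock replicate 2 was left out, 0.127 for AT90ES replicate 1 and 0.0553 for AT90ES replicate 2. Trim26 passed only without mock replicate 2 among these 4 (0.0351), with 0.0832 when mock replicate 1 was left out, 0.195 for AT90ES replicate 1 and 0.181 for AT90ES replicate 2. With every probe of the array tested separately the adjusted p-values were 0.172 and 0.176, and over all 13 alternatives they ranged from 1.34e-05 to 0.172 for Trim21 and from 1.79e-05 to 0.195 for Trim26. The share of all genes called higher was 0.212%, 0.198%, 0.144% and 0.158% with mock replicate 1, mock replicate 2, AT90ES replicate 1 or AT90ES replicate 2 left out, and 0.126% with every probe tested separately, where 0 members passed. Both genes passed with equal array medians (all genes 0.775% higher, 0.018% lower), equal reference genes (0.343%), robust variance or the dimmest probe of each gene (0.392% each), dim genes left out (1.23% higher, 0.0459% lower) and the replicate number as a block (0.383%). Trim21 and Trim26 each had only 1 probe with a single symbol, so the fit with the dimmest probe used the same values for them. With the replicate numbers crossed 0 members passed (0.266%), at adjusted p-values of 0.0702 and 0.0512.

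The promoters of Trim21 and Trim26 share a motif, and the windows are printed because the motif is also present in members that did not pass. The interferon-stimulated response element (ISRE) is a site bound by IRF proteins in the promoters of interferon-induced genes, and its core was searched on both strands as a pair of GAAA blocks separated by NN, any 2 bases. RefSeq promoter windows (GRCm38.p6, 250 bases before to 50 after an annotated start) were available for 49 of the 63 members. The core was found for 8 of these genes, or 16.3%, against 3.99% of the 27025 genes in the promoter table. The longer form, a core followed by C and thus a subset of the core matches, was found for 6 members (12.2%, all genes 0.944%), and Trim21 and Trim26 were not among them. Among the other genes called higher, 16 of 71 with a window held the core (22.5%) and 14 the longer form (19.7%). Of the 8 members with a core, Trim12a, Trim12c, Trim30a, Trim30d and Trim34a are close relatives from a run on chromosome 7. With Trim2, they make up the 6 members with the longer form. The shares of the family therefore count related copies separately.

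Windows of 30 bases around the core are given 5′ to 3′ on the strand of the gene, with the core in capitals; TTTC at the left of the capitals marks a core on the opposite strand.
Trim21, chr7:102565447-102565476, minus strand: ctgagagGAAACTGAAAGTGAAAtttggac
Trim26, chr17:36836979-36837008, plus strand: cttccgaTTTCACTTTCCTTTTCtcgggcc
Trim12a, chr7:104315466-104315495, minus strand: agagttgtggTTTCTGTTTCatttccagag
Trim12c, chr7:104353359-104353388, minus strand: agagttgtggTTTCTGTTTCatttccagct
Trim30a, chr7:104465210-104465239, minus strand: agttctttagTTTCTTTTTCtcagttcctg
Trim30a, second start, chr7:104446104-104446133, minus strand: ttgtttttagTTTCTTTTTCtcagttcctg
Trim30d, chr7:104507871-104507900, minus strand: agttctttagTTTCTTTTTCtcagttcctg
Trim34a, chr7:104244457-104244486, plus strand: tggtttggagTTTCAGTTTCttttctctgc
Trim2, chr3:84212791-84212820, minus strand: tcagctttggTTTCCTTTTCtctaagacag

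In Trim21 and Trim26 a pair of overlapping cores formed a tandem of 3 GAAA blocks, each separated from the next by NN, which no other member with a window held and which was present for 0.133% of all genes in the table; this form was searched after the overlap had been seen. The tandem lay at positions 14 to 29 of Trim21 and -160 to -145 of Trim26, counted from 1 at the annotated start. The 250 bases before the start of Trim26 (chr17:36836896-36837145, plus strand, core in capitals) show where the tandem stands.
Trim26, upstream: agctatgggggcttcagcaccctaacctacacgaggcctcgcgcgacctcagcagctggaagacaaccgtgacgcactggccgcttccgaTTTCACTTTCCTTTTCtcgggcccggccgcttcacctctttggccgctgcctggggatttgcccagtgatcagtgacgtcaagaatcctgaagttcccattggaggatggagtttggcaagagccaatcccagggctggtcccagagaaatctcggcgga
The other 6 members with a core did not pass: Trim12c stood at 0.54, Trim12a at 0.45, Trim30d at 0.19, Trim30a at 0.17, Trim2 at -0.10 and Trim34a at -0.22. Of these, Trim12c, Trim30a, Trim30d and Trim34a lay under background on every array. The median change over the 8 members with a core, Trim21 and Trim26 included, was 0.32, and over the 6 not passing 0.18. Over the 41 with a window and no core it was -0.06. The difference between these medians was not tested. A match is a stretch of letters, and binding was not measured.

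Trim7 and Trim56 came next in size and did not pass. Trim7, a ligase known for its interaction with glycogenin, had levels of 4.95 and 5.38 in mock and 6.23 and 6.06 in AT90ES cells. The groups did not overlap, and mock replicate 1 lay under background. Its log2 fold change was 0.98 (95% interval 0.54 to 1.42, adjusted p = 0.188). It passed with equal array medians (0.0247) and with an intensity trend in the spread (0.0104). The dimmer probe of Trim7 had levels of 4.29 and 4.17 in mock and 4.32 and 4.26 in AT90ES cells, under background throughout, with a log2 fold change of 0.06.

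Trim56, an antiviral ligase linked to cGAS and STING signalling, had levels of 6.64 and 6.56 in mock and 7.02 and 7.35 in AT90ES cells. The groups did not overlap. Its log2 fold change was 0.59 (interval 0.22 to 0.96, adjusted p = 0.371, and 0.045 with an intensity trend). Trim11, a ligase that acts in neurons, stood at 0.39, and Trim23, which carries an ARF GTPase domain and modifies the NF-kappaB regulator NEMO, at 0.35. Neither passed (adjusted p = 0.436 and 0.514).

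The lowest change was that of Trim59, a membrane-anchored ligase linked to tumour cell growth. Its levels of 9.53 and 9.5 in mock cells stood against 8.99 and 8.93 after AT90ES. Arrays within a group differed by under 0.1, far less than the distance between the groups. The log2 fold change was -0.56 (interval -0.84 to -0.28, adjusted p = 0.256). With an intensity trend the adjusted p was 0.000656, and Trim59 was then the 1 member called lower, against 0.73% of all genes; that fit called 4 members higher (all genes: 1.94%), namely Trim21, Trim26, Trim7 and Trim56. Trim30c stood at -0.43 and lay under background on every array. Trim58, which acts in the maturation of red cells, stood at -0.39 and lay above background on 2 arrays. Neither passed the threshold (limma adjusted p = 0.456 and 0.467).

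**Figure D3:**
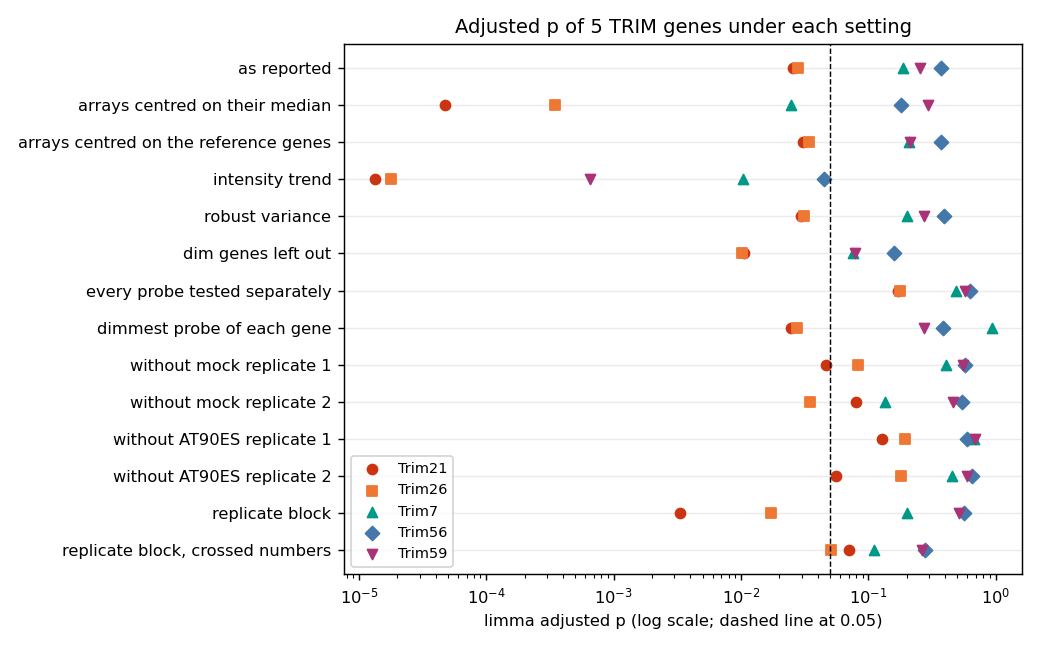
Limma adjusted p (log scale) of Trim21, Trim26, Trim7, Trim56 and Trim59 as reported and under 13 alternatives, with the threshold of 0.05 dashed. Trim21 and Trim26 have 1 probe each, so the dimmest-probe alternative used the same values for them. Trim21 and Trim26 pass in 7 of the 9 alternatives that keep all arrays and in 1 each of those that leave an array out; Trim7, Trim56 and Trim59 pass with an intensity trend, and Trim7 also with array medians set equal by centring.

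Several TRIM genes with known roles in nucleic acid sensing did not pass. Of 21 members listed for such a role, 2 rose (all genes: 0.415%), Trim21 and Trim26. Of the others 0 fell (all genes: 0%) and 19 did not pass, and the median of the list was 0.14. Of the 21, 9 lay above background on every array and 11 on none, where a change could go unseen. This list was drawn up with earlier results on these arrays known. Trim25, the ligase that ubiquitinates the RNA sensor RIG-I, had levels of 4.72 and 3.58 in mock and 4.27 and 4.33 in AT90ES cells. Both AT90ES values fell between the mock values, and all 4 were under background. Its log2 fold change of 0.15 had a wide interval of -0.73 to 1.03, and the value was 0.72 without mock replicate 1 and -0.42 without mock replicate 2.

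Trim14, an adaptor without a RING domain that takes part in antiviral signalling at mitochondria, had levels of 5.36 and 5.36 in mock and 5.11 and 5.47 in AT90ES cells. The groups overlapped, with a log2 fold change of -0.07 (interval -0.45 to 0.31). Trim38, a brake on NF-kappaB signalling, was under background with a log2 fold change of -0.12 (interval -0.50 to 0.26). Trim32, which is best known in muscle and can ubiquitinate STING, stood at 0.08 (interval -0.27 to 0.42) at levels of 6.90, 7.02, 7.16 and 6.91. Trim14 and Trim32, which lay above background on every array, had intervals whose upper ends were below the lower end of the Trim26 interval.

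Trim8 and Trim27 were well above background and had lower means in AT90ES cells. Trim27, which was first known as a fusion partner of RET, had levels of 8.29 and 8.37 in mock and 8.10 and 7.97 in AT90ES cells, with a log2 fold change of -0.29 (adjusted p = 0.556). Its dimmer probe stood at 0.02. Trim8, a regulator of SOCS1 and p53, had levels of 8.28 and 8.30 against 8.13 and 8.03, with a log2 fold change of -0.21 (0.655). The groups did not overlap for either gene, and neither difference passed. Trim13, anchored in the endoplasmic reticulum, stood at 0.15, Trim31, which acts on MAVS, at -0.08, and Trim40 at -0.08, none past the threshold.

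The genes related to the retroviral restriction factor Trim5 lie in a run on chromosome 7, in the order Trim6, Trim34a, Trim5, Trim12a, Trim34b, Trim12c, Trim30b, Trim30c, Trim30a and Trim30d in the RefSeq table. Of the 8 measured members of this run 0 were called higher (all genes: 0.415%) or lower (all genes: 0%) by limma. At an unadjusted p under 0.05, 1 was higher and 1 lower (all genes: 4.5% and 4.59%). The median change was 0.15. Of the 8, 7 lay under background on every array. Trim12a, the exception, had levels of 5.05 and 5.20 in mock and 5.89 and 5.27 in AT90ES cells. Its level on mock replicate 1 lay under background. AT90ES replicate 1 was high and AT90ES replicate 2 was close to mock, so that the change of 0.45 had an interval of -0.09 to 1.0. Trim12c had levels of 2.63 and 2.66 in mock and 3.35 and 3.02 in AT90ES cells, a change of 0.54 (adjusted p = 0.393). Trim30a, which restrains Toll-like receptor signalling in macrophages, had 2.82 and 3.53 in mock and 3.30 and 3.38 in AT90ES cells, so the groups overlapped (change 0.17, interval -0.43 to 0.76). The remaining members of the run changed by 0.19 (Trim30d), 0.14 (Trim6), -0.09 (Trim30b), -0.22 (Trim34a) and -0.43 (Trim30c). A dimmer probe of Trim34a, also under background on every array, stood at 0.18. Members of the run are close relatives, so probes could bind RNA of more than 1 of them.

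Trim26 belongs to a group on chromosome 17, in the region of the MHC, with Trim39, Trim15, Trim10, Trim40 and Trim31. Of these 6 members Trim26 alone was called by limma (all genes: 0.415% higher, 0% lower). Trim39 was above background at levels of 6.10 and 5.90 in mock and 6.20 and 6.02 in AT90ES cells, a change of 0.11. The other 4 lay under background on every array, with changes between -0.08 and -0.06. Trim68 lies on chromosome 7, as does Trim21, and is of the same domain class. Trim68 had levels of 4.88 and 5.34 in mock and 5.44 and 5.51 in AT90ES cells, with mock replicate 1 under background. The change of 0.37 did not pass (limma adjusted p = 0.611).

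By carboxy-terminal domain, both called genes belonged to the PRY-SPRY class, whose B30.2 fold recognises target proteins. Of 32 members of this class 2 rose (all genes: 0.415%), 0 fell (all genes: 0%) and 30 did not pass. Changes were positive for 16 and negative for 16, and the median was -0.03. The 31 members of other classes had 0 calls in either direction. At an unadjusted p under 0.05 in limma, 2 of them were higher and 4 lower (all genes: 4.5% and 4.59%). Above background on every array lay 11 of the 32 PRY-SPRY members and 20 of the 31 others. The difference between classes was not tested.

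The PHD-bromodomain members are chromatin regulators: Trim28 (KAP1) is the corepressor of KRAB zinc finger proteins, Trim24 degrades p53 and Trim33 acts on SMAD4. Their changes were small, with -0.13 for Trim28 (9.86 and 9.99 in mock, 9.79 and 9.79 in AT90ES cells), -0.07 for Trim24, -0.06 for Trim33 and 0.06 for Trim66. The 4 NHL members, which include RNA-binding regulators, lay between -0.35 (Trim71, a stem cell factor) and 0.08 (Trim32). The 4 members that bind microtubules through a COS box, FN3 and SPRY domains lay between -0.12 (Trim9) and 0.14 (Trim36). The 3 muscle ligases with a COS box alone lay between -0.34 (Trim55) and 0.19 (Trim54). A dimmer probe of Trim54, under background on every array, stood at -0.22. The 4 members placed in a class of their own for lacking a RING lay between -0.34 (Trim16) and 0.01 (Trim29). None of the members in this paragraph passed the threshold.

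**Figure D4:**
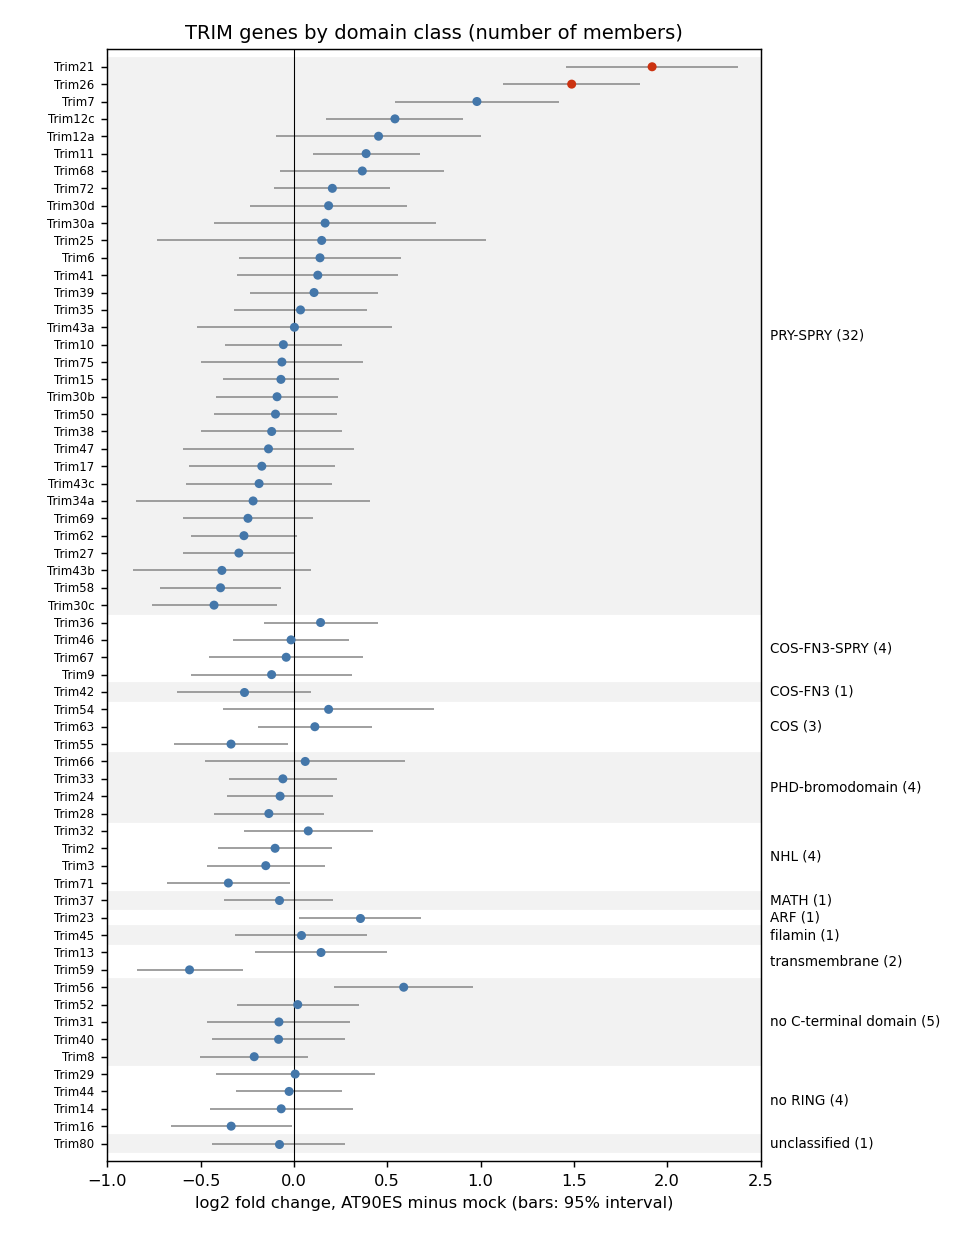
Log2 fold change with its 95% interval (limma, not adjusted for the number of genes) for every TRIM gene, grouped by domain class with the number of members; red marks an adjusted p under 0.05. Both red genes, Trim21 and Trim26, are in the PRY-SPRY class, and the intervals of most other genes include 0.

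Genes of the pathways in which TRIM proteins act were taken from 7 lists of 65 measured genes, drawn up with earlier results on these arrays known. Of these 12 rose (18.5%; all genes: 0.415%), 0 fell (all genes: 0%) and 53 did not pass, with a median of 0.12. Leaving out 1 array brought the 12 to 7 without mock replicate 1 and to 6 without any of the other 3. In the RIG-I-like receptor list 4 of 12 rose: Ifih1 by 5.69, Ddx58 (RIG-I, the target of Trim25) by 3.49, Dhx58 by 1.62 and Zc3hav1, a zinc finger antiviral protein, by 1.13. In the interferon receptor and signalling list 3 of 10 rose, namely Usp18, which removes ISG15, by 2.78, Stat2 by 1.98 and Irf9 by 1.26. In the ISG15 and ubiquitin conjugation list 2 of 14 rose, Isg15 by 4.16 and the ISG15 ligase Herc6 by 2.14. The rises of Dhx58, Zc3hav1 and Irf9 lost their calls in at least 3 of the 4 fits with an array left out.

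Of 8 NF-kappaB adaptors and factors that TRIM proteins modulate, 1 rose, the inhibitor Nfkbia at 1.35, and Tab2 and Tab3, substrates of Trim30a and Trim38, stood at 0.12 and 0.19. Of 7 partners in p53 control and KRAB repression, 2 rose, Mdm2 at 1.39 and Cdkn1a at 1.26, while Setdb1, the methyltransferase recruited by Trim28, stood at 0.04. The calls of Nfkbia, Mdm2 and Cdkn1a held in 0 of the 4 fits with an array left out. In the cGAS and STING list 0 of 8 were called by limma in either direction (all genes: 0.415% higher, 0% lower). At an unadjusted p under 0.05 in limma, 2 were higher (all genes: 4.5%). Sting1 stood at 0.01 and Samhd1, a dNTP hydrolase, at 0.10.

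Of 6 TRIM proteins that carry other symbols, 0 passed in limma (all genes: 0.415% higher, 0% lower). At an unadjusted p under 0.05 in limma, 1 was higher (all genes: 4.5%). This was Pml, the organiser of nuclear bodies, with levels of 8.39 and 8.47 in mock and 9.40 and 9.32 in AT90ES cells. The groups were separate, and the change of 0.93 (interval 0.64 to 1.22) had an adjusted p = 0.0622. Pml passed with equal array medians (0.0118) and with an intensity trend (1.56e-05), and in 0 of the 4 fits with an array left out. Mid2, a microtubule ligase, stood at -0.02.

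**Figure D5:**
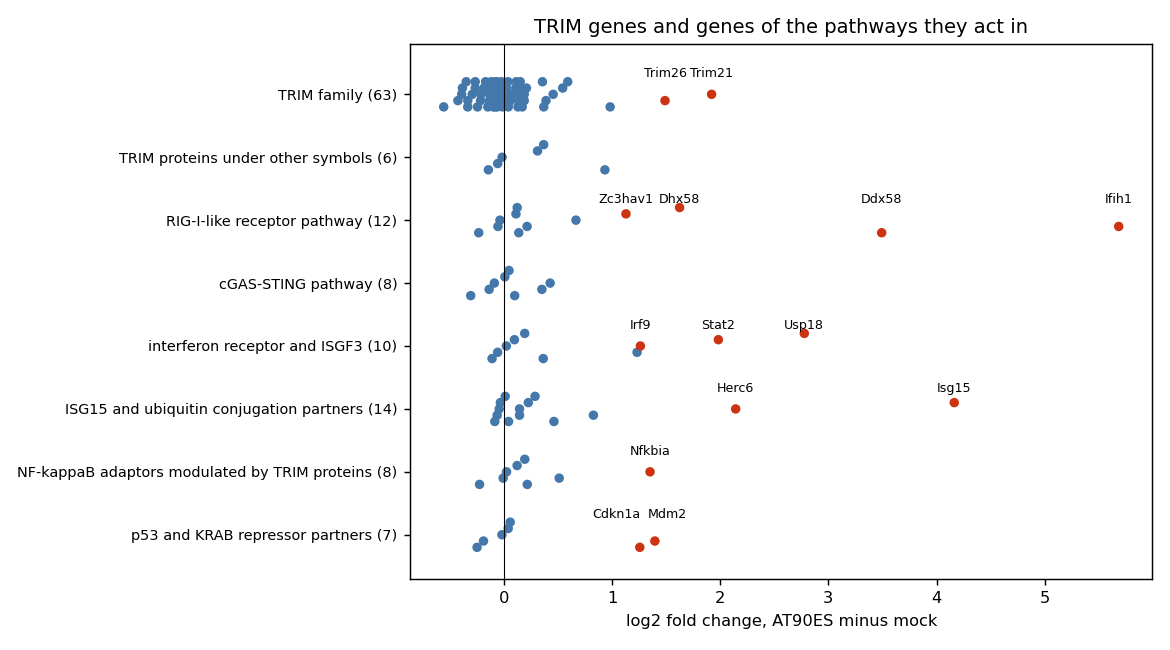
Log2 fold change (AT90ES minus mock) of each TRIM gene and of each measured gene on 7 partner lists, with the number of genes in brackets; red and named where the limma adjusted p was under 0.05. Ifih1 at 5.69 and Isg15 at 4.16 lie furthest to the right, and Trim21 at 1.92 lies near Stat2 at 1.98.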

How the data were processed

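The deposited values were log2 levels of 41345 probes on 4 arrays, with 300 ng RNA put into each labelling reaction (per the labels). They had been made by the authors with RMA, per the submitters' processing notes; its software and settings are not given in the sources used here. RMA sets the arrays to a common distribution, so a shift shared by all genes is removed. Probes were named from the platform's annotation: 23521 had 1 symbol, 1814 several and 16010 none. The brightest probe stood for each gene (5 members had more than 1). All 63 members matched a RefSeq gene by ID.

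The groups were compared in limma 3.58.1 (R 4.3.3; lmFit, eBayes, no covariate) over 22180 genes, two-sided, with Benjamini-Hochberg adjustment and a threshold of 0.05. The fit had 2 residual degrees of freedom and 3.70 from sharing across genes. An exact permutation test of 2 against 2 arrays cannot go below p = 0.333. The number of arrays limits the precision. The limma fit was tested on simulated data with independent noise on each value, which does not cover effects shared within an array. Domain classes, roles and partner lists were written by hand, and the members and lists were chosen with earlier results of these data known. Values are given for members that passed in this fit or in another one with all arrays, for the 3 largest rises and falls not past the threshold and for members with an innate role; other members are given by class. Genes named besides these, Trim11, Trim39 and Trim68 among them, were chosen after their values were seen. In partner lists, up to 6 members past the threshold were named, or the 2 of the highest level; Tab2, Tab3 and Setdb1 were added after their values were seen. The alternatives were array centring, the spread model, a filter on dim genes, the probe per gene, leaving out each array and the replicate number as a block. A planned comparison of protein sequences was not made, and 1 further promoter motif is not reported here.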

Additional observations from a re-analysis of the deposited data

How the results depend on the processing

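The 24 members given in detail kept their direction and their side of the threshold in 273 of 301 comparisons with an alternative. Many of these alternatives changed only the spread model, the block or the genes tested, and there the direction was kept by construction. In 10 a call was lost, in 4 a call was gained, and in 14 an uncalled value changed sign (the largest of these at 0.42 in size); 0 called values reversed. The members called higher numbered 4 with an intensity trend, 0 with every probe tested separately and 0 to 1 with an array left out, against 2; the members called lower numbered 1 with an intensity trend, against 0. With an array left out, 15 to 24 members (23.8% to 38.1%; all genes 31.0% to 32.3%) lay wholly above and 21 to 32 (33.3% to 50.8%; all genes 36.7% to 39.6%) wholly below mock, and 10 lay below with equal array medians (15.9%; all genes 16.7%). The family median was -0.070 to 0.018 with an array left out. Partner genes called higher numbered 6 with every probe tested separately and 6 to 7 with an array left out.

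Over all genes, calls numbered 92 higher and 0 lower, and 431 and 162 with an intensity trend, 172 and 4 with equal array medians, 160 and 6 with dim genes left out, 28 and 0 among brightest probes with every probe tested separately, 59 and 0 with crossed numbers, and 32 to 47 and 0 with an array left out. Same-numbered arrays of the groups did not deviate together (r = -0.22 across genes), and the numbers were not taken as pairs. With the replicate number as a block, 2 members were higher (Trim21 adjusted p = 0.00331, Trim26 0.0172), the same genes. With the numbers crossed, an alternative added after seeing the data, the block left 0 members and 7 partner genes higher. The causes of these shifts were not tested. The 23 members under background on every array could hide changes.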

Other observations

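Some probes with a Trim symbol stood outside the family as defined. Of 7 probes carrying several symbols, 1 shared by Trim34b and Trim34a had levels of 2.74 and 3.32 in mock and 3.79 and 3.98 in AT90ES cells, a difference of 0.86 (limma adjusted p = 0.623 with every probe tested separately). Of a pair of probes shared by Trim12c and Trim5, 1 stood at 0.62 (levels 2.75 and 2.83 against 3.59 and 3.22, adjusted p = 0.627) and the other at 0.01. All 3 lay under background on every array. The probe shared by Trim65, a regulator of the RNA sensor MDA5, and Trim47 was above background, with levels of 6.86 and 6.93 in mock and 6.37 and 6.65 in AT90ES cells, a difference of -0.39 (adjusted p = 0.727). The pseudogene Trim30e-ps1 stood at -0.15, under background.

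Trim63, a muscle ligase known from atrophy, lay well above background in this melanoma line, at 8.14 and 8.30 in mock and 8.31 and 8.36 in AT90ES cells. Its log2 fold change was 0.11 (adjusted p = 0.836). It was singled out after its level was seen.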
